A study of Rattus norvegicus with 12 samples.

Results

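Cytochrome P450 enzymes of families 1 to 4 were followed in male rats dosed with the solvent trichloroethylene (TCE), in their livers and renal cortices. A gene was included where an array probe set carried exactly 1 gene symbol made of Cyp, a digit from 1 to 4 and a letter. Cyp2e1, Cyp2r1 and Cyp4a1 were left out. Where a gene had several such probe sets, the one with the highest mean over the arrays stood for it. This gave 40 of the 14217 genes with 1 symbol: 3 of family 1, 24 of family 2, 4 of family 3 and 9 of family 4. Another 4 probe sets were annotated with a pair of P450 symbols each (Cyp2a2 and Cyp2a1, Cyp2b2 and Cyp2b1, Cyp2d5 and Cyp2d1, Cyp4a3 and Cyp4a2), and they are given beside the members. The values are log2 expression values, so that a difference of 1 is a doubling.

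The study measured RNA in 4 groups of 3 arrays: liver of TCE rats, liver of control rats, renal cortex of TCE rats and renal cortex of control rats. TCE rats were dosed orally on 3 days with TCE at 16 mg/kg per day, dissolved in corn oil (5 ml/kg). Control rats got only the vehicle, so corn oil was common to all groups. The 6 rats, 3 per treatment, were males aged 7 to 9 weeks, described as Wistar-derived with the strain entry F-344, and were killed 24 h after the last dose. About 50 mg of each tissue was taken, and the labels do not say whether the same number in liver and kidney marks the same rat. According to its title, the study asked how TCE metabolites act on vitamin B12-dependent methionine salvage in the liver.

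P450 enzymes are heme proteins of the endoplasmic reticulum that insert 1 atom of molecular oxygen into lipophilic substrates, with electrons passed on from NADPH by P450 oxidoreductase. Members of families 1 to 3 oxidise drugs, solvents and steroids and are most abundant in hepatocytes, where many are induced through the Ah receptor, the constitutive androstane receptor (CAR, Nr1i3) or the pregnane X receptor (PXR, Nr1i2). Family 4 and several members of family 2 act on fatty acids and arachidonic acid, in kidney as well as in liver, and in rats a group of hepatic P450s differs between the sexes under the control of growth hormone.

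Correlations between arrays of the same group ran from 0.9926 to 0.997 over the probe sets, and 27.5% to 29.1% of the values on an array sat at the shared lowest value of 2.17. Of the 9 hepatocyte markers on the array, 0 lay within 1 log2 unit of that value in liver, and of the 8 proximal tubule markers 0 did so in renal cortex, as the tissue labels say. Kidney control replicate 2 stood apart: albumin (Alb) had 12.8 log2 units there, against 4.36 to 10.96 in the TCE kidneys and 7.84 and 9.89 in the other control kidneys. The Gapdh control probe set at the 3' end exceeded that at the 5' end, a measure that widens as RNA degrades, by 1.70, 1.56 and 1.21 log2 units in TCE livers, against 0.78, 0.80 and 0.86 in control livers. In kidney this gap was 0.59, 0.87 and 0.51 in TCE rats, against 1.02, 0.85 and 1.05 in controls. In pieces of whole tissue, fewer cells of a type and less RNA per cell cannot be told apart.

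Liver and renal cortex of the control rats held different sets of P450 genes. On the control arrays 17 genes had values in liver but lay near the lowest value in kidney, 16 had values in both tissues, and 7 lay near the lowest value in both. Near the lowest value means here that the group mean was within 1 log2 unit of 2.17 or that all 3 arrays gave the same repeated value. The 7 were Cyp1a1, Cyp1b1, Cyp2a3, Cyp2b12, Cyp2b21, Cyp2g1 and Cyp4f5, and 4 of them (Cyp2a3, Cyp2b12, Cyp2b21 and Cyp2g1) sat at 2.17 on all 12 arrays. The plot of all 40 genes by array shows these 3 classes as points at the right for liver, points for both tissues, and points at the left edge.

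**Figure D1:**
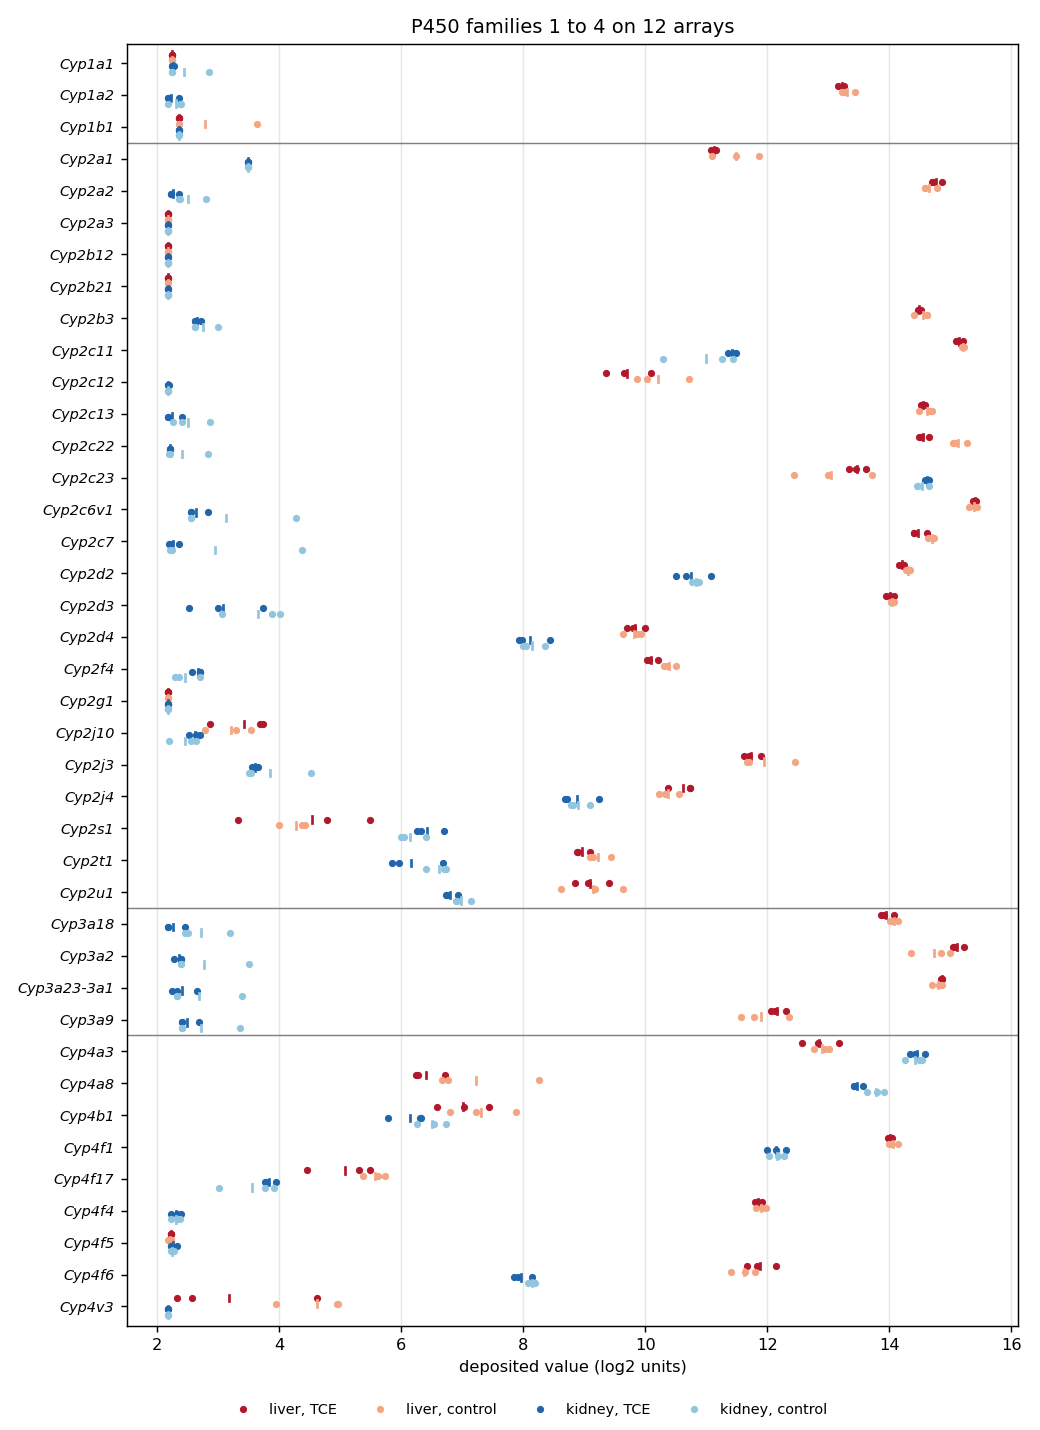
Deposited log2 values (horizontal axis) of the 40 P450 genes (rows, grouped by family) on the 12 arrays. Each point is an array, coloured by tissue and treatment, and a vertical tick is the mean of 3 arrays. Cyp4a8 has its kidney points at 13.42 to 13.91 and its liver points at 6.24 to 8.25, whereas Cyp2c22 has its liver points at 14.49 to 15.27 and its kidney points at 2.19 to 2.84.

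Of the 40 genes, 34 passed the filter on low values in the comparison of control liver with control kidney, and 32 of these passed an adjusted p of 0.05 (limma, Benjamini-Hochberg over all 10654 genes tested), against 68.6% of all genes. Higher in liver were 28, against 29.7% of all genes, and lower in liver were 4, against 38.9%. The median log2 difference was 6.07 over the 34 and -0.10 over all genes. A gene near the lowest value in kidney passes the filter only through its liver values and so had to differ, which limits what these counts show, and its difference is a lower bound. Cyp4b1, a family 4 enzyme best known from lung, had a log2 difference of 0.79 ± 0.29 (SE, n = 3 each, adjusted p = 0.0548), and Cyp1b1 had 0.43 ± 0.36 (adjusted p = 0.329). Cyp1b1 was at 2.35 on all of these arrays except liver control replicate 1 (3.63), so its difference came from that array alone.

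The genes with values in liver and near the lowest value in kidney included most of subfamilies 2A, 2C and 3A. Cyp2c22, known in rat as a retinoic acid hydroxylase, had 15.27, 15.07 and 15.05 log2 units in control livers, against 2.21, 2.84 and 2.19 in control kidneys. All liver values thus lay far above all kidney values, with a log2 difference of at least 12.72 (SE 0.20, n = 3 each, adjusted p = 1.33e-07). Cyp2c6v1 (at least 12.25), Cyp2a2 (12.14), Cyp3a23-3a1 (12.11), Cyp2c13 (12.10), Cyp3a2 (11.96), Cyp2b3 (11.80), Cyp2c7 (11.75), Cyp3a18 (11.34) and Cyp1a2 (10.99) followed in the size of this lower bound. Among these, Cyp2a2, Cyp2c13, Cyp3a2 and Cyp3a18 are known as male-predominant steroid hydroxylases of rat liver, and Cyp1a2 oxidises caffeine and aromatic amines. Next came Cyp4f4 (9.60), Cyp3a9 (9.19) and Cyp2c12 (8.03). The probe set of Cyp2c12, the female-predominant steroid sulfate hydroxylase, had 10.71, 9.87 and 10.02 log2 units in these male control livers. A probe set cannot separate transcripts that share its probes, and whether this one also read related transcripts was not tested.

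Cyp2d3 (10.38) and Cyp2j3 (8.09) completed the 15 largest differences, and their kidney means of 3.65 and 3.85 lay above the limit set for the lowest values. The other 13 genes that were higher in liver ranged from 0.75 for Cyp2j10, whose liver values were themselves low at 3.54, 2.79 and 3.30, to 7.99 for Cyp2a1. Cyp2c11, the main testosterone hydroxylase of the adult male rat liver, had 15.21, 15.23 and 15.19 log2 units in control livers, against 11.26, 11.43 and 10.29 in control kidneys. It thus had values well above the lowest in renal cortex too, with a difference of 4.22 ± 0.30 (adjusted p = 6.59e-05). Cyp2d2, the debrisoquine hydroxylase of the rat, also had values in both tissues, at 14.34, 14.28 and 14.30 in control livers, against 10.84, 10.77 and 10.88 in control kidneys (difference 3.48 ± 0.07, adjusted p = 3.06e-07).

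The 4 genes that were lower in liver were all well above the lowest value in kidney. Cyp4a8, a fatty acid omega-hydroxylase, had 8.25, 6.66 and 6.77 log2 units in control livers, against 13.80, 13.64 and 13.91 in control kidneys. Its groups lay several units apart, with a difference of -6.56 ± 0.44 (SE, n = 3 each, adjusted p = 4.69e-05). Cyp4a3, of the same subfamily, had 12.94, 13.01 and 12.76 in control livers, against 14.49, 14.54 and 14.25 in control kidneys (difference -1.52 ± 0.11, adjusted p = 7.54e-05). Cyp2c23, the main arachidonate epoxygenase of rat kidney, had 13.71, 12.99 and 12.44 in control livers, against 14.46, 14.65 and 14.47 in control kidneys (difference -1.48 ± 0.32, adjusted p = 0.00727). Cyp2s1, an extrahepatic enzyme of epithelia, had 4.43, 4.00 and 4.38 in control livers, against 6.40, 6.04 and 5.99 in control kidneys (difference -1.87 ± 0.17, adjusted p = 0.000172). For these 3 genes too the liver and kidney values did not overlap.

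Promoter sequences of 5 members are shown. They are Cyp3a2 and Cyp3a23-3a1 from the 4 Cyp3a genes, the pair of Cyp4a genes with the opposite tissue order, and Cyp2c22. The last was the P450 gene with the smallest p in the TCE comparison of liver. RefSeq's table for GRCr8 held a promoter for 34 of the 40 members. The stretches run 5' to 3' on the minus strand, up to 250 bases before the transcript start and ending at the edge of the annotated gene: chr12:14343887-14344107 for Cyp3a2, chr12:14398804-14399053 for Cyp3a23-3a1, chr5:133970227-133970476 for Cyp4a8, chr5:134352269-134352486 for Cyp4a3 and chr1:248980768-248981017 for Cyp2c22. Capitals mark the motifs that were searched for on both strands.
Cyp3a2: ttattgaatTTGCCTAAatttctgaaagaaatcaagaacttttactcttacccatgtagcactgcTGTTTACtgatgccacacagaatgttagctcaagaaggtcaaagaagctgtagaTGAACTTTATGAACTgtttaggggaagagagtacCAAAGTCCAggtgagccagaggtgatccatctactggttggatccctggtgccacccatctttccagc
Cyp3a23-3a1: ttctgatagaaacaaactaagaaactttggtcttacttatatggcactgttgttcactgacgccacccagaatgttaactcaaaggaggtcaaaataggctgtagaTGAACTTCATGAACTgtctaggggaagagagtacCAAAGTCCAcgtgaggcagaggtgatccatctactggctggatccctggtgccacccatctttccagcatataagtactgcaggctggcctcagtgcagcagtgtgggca
Cyp4a8: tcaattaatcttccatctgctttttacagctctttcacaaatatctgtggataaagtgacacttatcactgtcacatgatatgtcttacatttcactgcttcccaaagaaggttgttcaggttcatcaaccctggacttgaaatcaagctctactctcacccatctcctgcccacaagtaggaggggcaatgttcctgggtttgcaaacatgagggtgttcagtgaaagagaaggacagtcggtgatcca
Cyp4a3: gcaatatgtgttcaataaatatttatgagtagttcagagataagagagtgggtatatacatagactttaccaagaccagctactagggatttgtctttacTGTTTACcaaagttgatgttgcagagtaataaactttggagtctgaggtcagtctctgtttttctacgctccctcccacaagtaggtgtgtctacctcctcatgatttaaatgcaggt
Cyp2c22: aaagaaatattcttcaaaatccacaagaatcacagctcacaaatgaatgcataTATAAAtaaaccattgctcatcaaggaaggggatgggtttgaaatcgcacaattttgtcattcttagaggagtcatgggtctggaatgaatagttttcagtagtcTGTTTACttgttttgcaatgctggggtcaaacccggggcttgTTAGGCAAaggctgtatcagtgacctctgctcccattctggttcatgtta

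Both Cyp3a promoters shown held TGAACT repeated after a gap of 3 bases, a direct repeat of the kind PXR binds. It lay from base -131 to -117 of Cyp3a2 and from -144 to -130 of Cyp3a23-3a1, counted back from the transcript start. These were the 2 promoters of all 33469 in the table (0.00598%) that held it in the 250 bases before the start. Only this exact half-site was searched, without variants, which by itself makes matches rare. Both Cyp3a promoters shown also held TGNACTTTG, a core of the sites bound by the hepatocyte factor HNF4. This core was held by 5 of the 34 members and by 1.06% of all promoters. The promoters of Cyp3a9 and Cyp3a18 held neither this core nor the repeat. Cyp3a2 and Cyp3a23-3a1 shared a run of 59 bases over the whole 250-base windows, which for Cyp3a2 reach beyond the stretch shown. At that alignment 165 of 237 bases were equal (69.6%). TGTTTAC, a core of FOXA sites, was found in the promoters of Cyp2c22, Cyp3a2 and Cyp4a3 shown above, in 5 of the 34 members and in 3.21% of all promoters. TTANGNAA is a relaxed form of the D-box, to which the factors Dbp, Tef and Hlf and the repressor Nfil3 bind. It was held by 9 of the 34 members and by 10.4% of all promoters. The 9 were Cyp2a3, Cyp2b12, Cyp2b21, Cyp2b3, Cyp2c22, Cyp2c23, Cyp2c7, Cyp2g1 and Cyp3a2. Of these, Cyp2a3, Cyp2b12, Cyp2b21 and Cyp2g1 sat at the lowest value on all 12 arrays. TATAAA was also held by 9 of the 34, against 12.9% of all promoters, and Cyp2c22 carried it at -197 to -192. No motif overlapped another in these 5 stretches, and the Cyp4a8 stretch held 0 of the 5 motifs. A match is a description of the letters and not a measured site.

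In liver, TCE rats and control rats did not differ in any P450 gene past the test over all genes. The filter kept 34 of the 40 genes, and 0 of them passed an adjusted p of 0.05 by limma, as did 0% of all 10552 genes tested. At an unadjusted p under 0.05 there were 3, all lower in TCE livers (Cyp2c22, Cyp2f4 and Cyp2c7), that is 3 of 34, against 14.7% of all genes, 5.84% in that direction and 8.81% in the other. The 3 TCE and 3 control values did not overlap for 5 of the 34 genes, against 20.5% of all genes. Cyp2c22, Cyp2f4, Cyp2c7 and Cyp2d2 lay lower, against 8.31% of all genes, and Cyp3a2 lay higher, against 12.2%. The median log2 difference was -0.06 over the 34, of which 11 had a positive and 23 a negative difference, and 0.03 over all genes, of which 56.2% had a positive one. The plot of the differences in both tissues gives each one with its standard error.

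**Figure D2:**
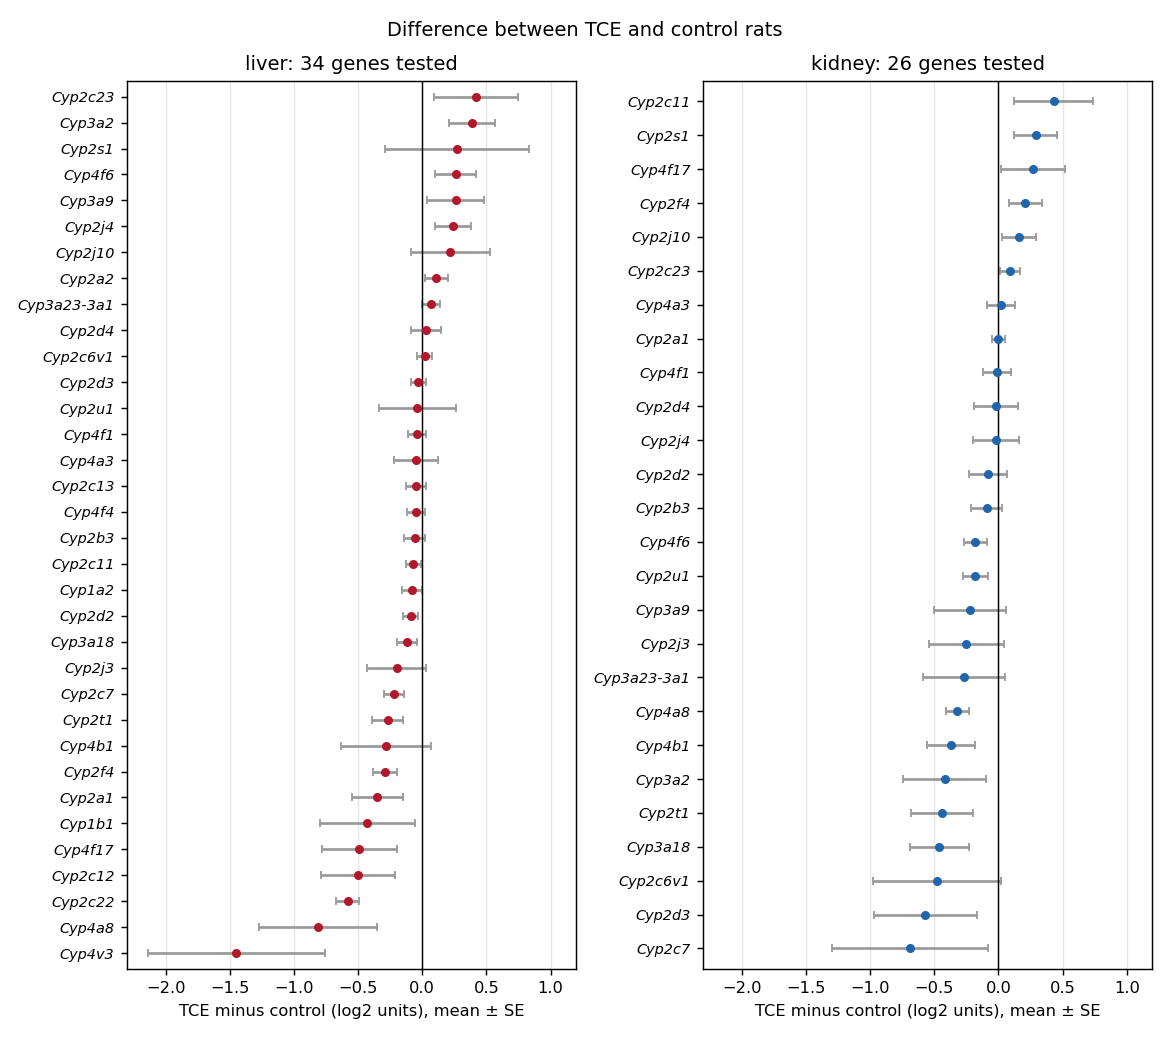
Log2 difference of TCE rats minus control rats (horizontal axis, mean ± SE from limma, 3 arrays each) for the P450 genes that passed the filter, 34 in liver (left panel) and 26 in kidney (right panel), ordered by size. Cyp2c22 stands at -0.58 in liver with a short bar, whereas the larger values of Cyp4v3 (-1.45) and Cyp4a8 (-0.81) have long bars.

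Cyp2c22 had the smallest p of the P450 genes in liver. It had 14.52, 14.65 and 14.49 log2 units in TCE livers, against 15.27, 15.07 and 15.05 in control livers. All TCE values lay below all control values, with a ratio of 0.67 (log2 difference -0.58 ± 0.09 SE, n = 3 each, limma's adjusted p = 0.132). Cyp2c7, which also hydroxylates retinoic acid and is female-predominant in adult rats, had 14.62, 14.40 and 14.41 in TCE livers, against 14.72, 14.64 and 14.73 in control livers. Its groups nearly met, at 14.62 and 14.64 (difference -0.22 ± 0.08, adjusted p = 0.333). After quantile normalization again they overlapped, with a difference of -0.16.

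Cyp2f4, known for the oxidation of naphthalene in lung, had 10.03, 10.20 and 10.06 log2 units in TCE livers, against 10.35, 10.50 and 10.30 in control livers. The groups did not overlap (difference -0.29 ± 0.09, ratio 0.82, adjusted p = 0.266). Cyp2d2 had 14.16, 14.24 and 14.23 in TCE livers, against 14.34, 14.28 and 14.30 in control livers, a separation within a narrow range (difference -0.09 ± 0.06, adjusted p = 0.503). Cyp3a2, a testosterone 6-beta-hydroxylase, had 15.05, 15.23 and 15.06 in TCE livers, against 14.35, 14.84 and 14.99 in control livers. It was the P450 gene with all TCE values above the controls, and control replicate 1 lay lowest (difference 0.39 ± 0.18, ratio 1.31, adjusted p = 0.391). Without that replicate the difference was 0.20.

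**Figure D3:**
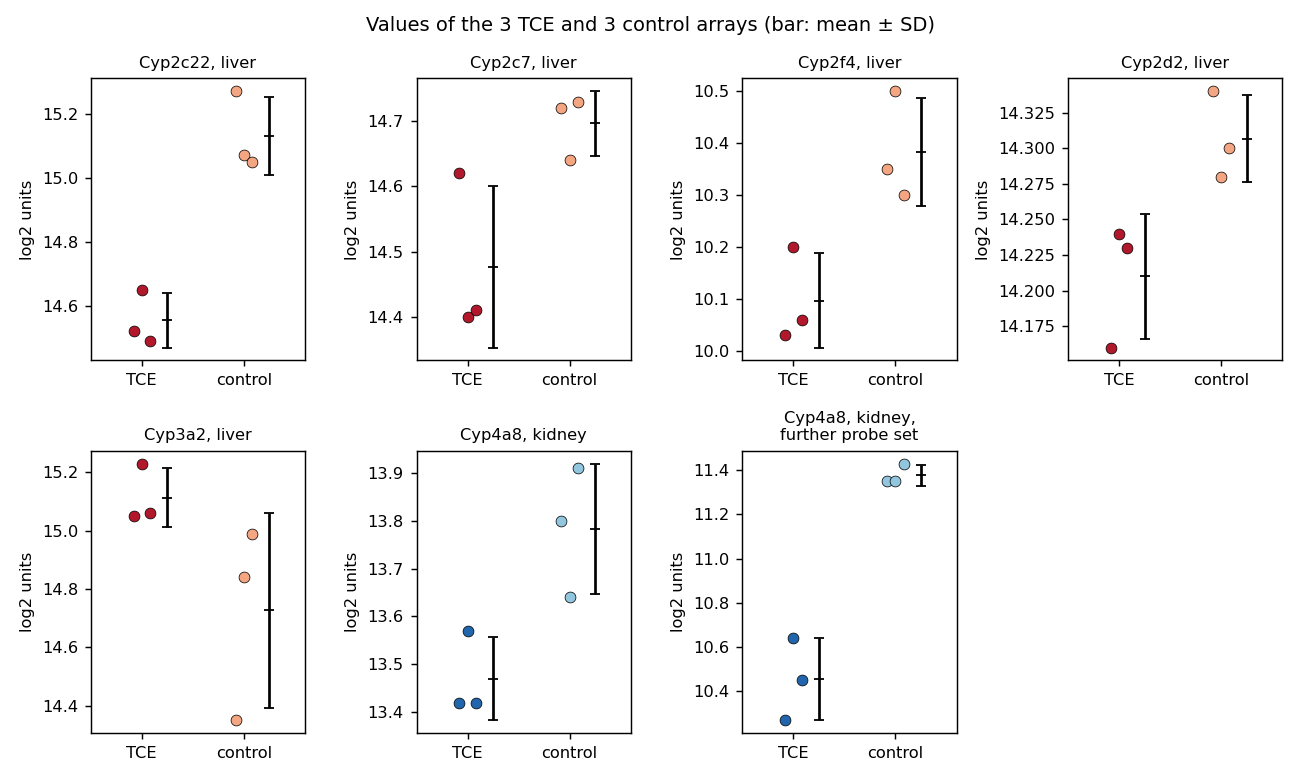
Values in log2 units (vertical axes, each panel with its own range) of the genes whose 3 TCE and 3 control values did not overlap, with TCE at the left and control at the right of each panel. Points are arrays and bars are the mean ± SD. In liver Cyp2c22, Cyp2c7, Cyp2f4 and Cyp2d2 lie lower and Cyp3a2 higher in TCE rats, and in kidney both probe sets of Cyp4a8 lie lower in TCE rats.

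Centring each array on its median, which moves the median of all genes in liver to -0.07, changed this picture. Under it 10 P450 genes did not overlap, against 25% of all genes. All 10 lay lower in TCE livers, as did 20% of all genes: Cyp1a2, Cyp1b1, Cyp2c7, Cyp2c11, Cyp2c22, Cyp2d2, Cyp2f4, Cyp2t1, Cyp3a18 and Cyp4f1. Cyp3a2 was not among them. Cyp1b1 had the same repeated lowest value of 2.35 on 5 of the 6 arrays, control replicate 1 being the other, so its separation from control replicates 2 and 3 came from the shift between arrays alone. Cyp2c22 then had a difference of -0.68 and Cyp3a2 one of 0.29.

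The members listed with the Ah receptor, CAR and PXR had differences of both signs in liver. Of the Ah receptor targets, Cyp1a1 was listed at 2.24 on all 6 liver arrays, and Cyp1b1 was at 2.35 on all of them except control replicate 1, where it was 3.63. Cyp1a2 had 13.16, 13.25 and 13.24 log2 units in TCE livers, against 13.43, 13.25 and 13.22 in control livers, so that the groups overlapped (difference -0.08 ± 0.08 SE, adjusted p = 0.683). The tested members of the CAR and PXR list were Cyp2b3, Cyp2c6v1, Cyp2c7, Cyp3a2, Cyp3a9, Cyp3a18 and Cyp3a23-3a1. Whether each of them responds to these receptors was not tested. Of these 7, 4 had a positive and 3 a negative difference, with a median of 0.02 and a range from -0.22 to 0.39. Cyp3a23-3a1, the dexamethasone-inducible enzyme of the subfamily, had 14.87, 14.85 and 14.86 in TCE livers, against 14.81, 14.70 and 14.87 in control livers (difference 0.07 ± 0.07). Cyp2b3 had a difference of -0.06 ± 0.08. The probe set annotated to the phenobarbital-inducible pair Cyp2b2 and Cyp2b1 had 10.39, 11.32 and 11.05 in TCE livers, against 10.86, 11.57 and 11.33 in control livers, and these values overlapped.

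Members that differ between the sexes in adult rat liver also had differences of both signs. Of the 5 male-predominant genes, 2 had a positive and 3 a negative difference (median -0.05). Cyp2c11 had 15.21, 15.10 and 15.09 log2 units in TCE livers, against 15.21, 15.23 and 15.19 in control livers, and the highest TCE value equalled the middle control value (difference -0.07 ± 0.06 SE, adjusted p = 0.613). Cyp2a2 had a difference of 0.11 ± 0.09, Cyp2c13 one of -0.05 ± 0.08 and Cyp3a18 one of -0.12 ± 0.08. Of the 4 female-predominant genes, 1 had a positive and 3 a negative difference (median -0.29). Cyp2c12 had 9.65, 9.36 and 10.10 in TCE livers, against 10.71, 9.87 and 10.02 in control livers, with overlap (difference -0.50 ± 0.29, and -0.24 without control replicate 1). Cyp2a1, a testosterone 7-alpha-hydroxylase, had 11.16, 11.07 and 11.15, against 11.86, 11.10 and 11.48 in controls (difference -0.35 ± 0.20, and -0.16 without control replicate 1). Cyp3a9 had a difference of 0.26 ± 0.22, which was 0.49 without control replicate 1 and 0.10 without control replicate 3. The probe set shared by Cyp2a2 and Cyp2a1 had 13.01, 13.09 and 13.21 in TCE livers, against 13.59, 13.37 and 13.35 in control livers, without overlap and with a difference of -0.33. It lies between a positive difference of the Cyp2a2 probe set and a negative one of the Cyp2a1 probe set, so values of this pair are uncertain.

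Among the enzymes of fatty acids and eicosanoids in liver, the 5 tested epoxygenases had 3 positive and 2 negative differences (median 0.22), and the 8 tested members of family 4 had 1 positive and 7 negative ones (median -0.17). Cyp2c23 had 13.61, 13.46 and 13.34 log2 units in TCE livers, against 13.71, 12.99 and 12.44 in control livers, where the controls spread over more than the TCE range (difference 0.42 ± 0.33 SE). This difference was 0.75 without control replicate 1 and 0.12 without control replicate 3. Cyp2j4 had a difference of 0.24 ± 0.14, Cyp2j10 of 0.22 ± 0.31 (0.01 to 0.50 when 1 array was left out) and Cyp2j3 of -0.20 ± 0.23. Cyp4a8 had 6.72, 6.28 and 6.24 in TCE livers, against 8.25, 6.66 and 6.77 in control livers, with control replicate 1 far above the rest (difference -0.81 ± 0.46, and -0.30 without that replicate). A further probe set of Cyp4a8 had a difference of -0.29 in liver, with overlap and a TCE mean near the lowest value. Cyp4v3, whose human counterpart is an omega-hydroxylase, had 2.57, 2.32 and 4.62 in TCE livers, against 4.94, 3.95 and 4.96 in controls, so that TCE replicate 3 overlapped the controls (difference -1.45 ± 0.69, adjusted p = 0.398). Cyp4f17 had a difference of -0.49 ± 0.29, Cyp4b1 of -0.28 ± 0.35 and Cyp4f6, a leukotriene B4 hydroxylase, of 0.26 ± 0.16 (0.13 without TCE replicate 1). The others of family 4 lay nearer to 0: Cyp4a3 at -0.05 ± 0.17, Cyp4f4 at -0.05 ± 0.07 and Cyp4f1 at -0.04 ± 0.07.

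The remaining tested genes in liver were Cyp2t1, with a difference of -0.27 ± 0.12 (SE, adjusted p = 0.385, and -0.16 without control replicate 1), and Cyp2c6v1, Cyp2d3, Cyp2d4, Cyp2s1 and Cyp2u1, all between -0.04 and 0.27. The untested ones were Cyp1a1, Cyp2a3, Cyp2b12, Cyp2b21, Cyp2g1 and Cyp4f5. Liver control replicate 1 had the highest of the 6 values for 13 of the 34 genes, and liver TCE replicate 3 for 0. The hepatocyte markers summed to 18.60 to 18.61 log2 units in TCE livers and to 18.57 to 18.64 in control livers. The 7 markers of perivenous hepatocytes, where many P450s are most abundant, summed to 14.21 to 14.25 in TCE livers, against 14.09 to 14.21 in control livers, with Slc1a2 and Lgr5 near the lowest value. Of the 7, 4 had a positive and 2 a negative difference. Only Tbx3 did not overlap, lying higher in TCE livers, against 12.2% of all genes. The 8 periportal markers summed to 16.47 to 16.55, against 16.58 to 16.83 in controls, without overlap and with a negative difference for 8 of 8 (median -0.15). Taken by gene, only Hsd17b13 did not overlap, 1 of 8, against 8.31% of all genes in that direction. Past the adjusted test were 0 of the 8. Of the erythroid markers, Hbb and Alas2 had negative differences (median -1.03), with the 3 on the array summing to 13.42 to 14.01 in TCE livers, against 14.28 to 14.64 in control livers and Ahsp at the lowest value. Of 7 markers of stellate cells and fibroblasts, 5 had positive differences (median 0.33), summing to 12.21 to 12.64 in TCE livers, against 12.13 to 12.20 in control livers. The part of these markers and of the wider Gapdh gap of the TCE livers in the P450 differences was not tested.

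The proteins that serve and control P450s gave 0 genes past the adjusted test in liver too. Of 9 tested partners, 2 had a positive and 7 a negative difference (median -0.12). Por, the oxidoreductase that passes electrons to all of these enzymes, had 9.63, 10.28 and 9.70 log2 units in TCE livers, against 10.33, 10.15 and 10.44 in control livers, where TCE replicate 2 overlapped the controls (difference -0.44 ± 0.20 SE, adjusted p = 0.381). Its helper cytochrome b5, Cyb5a, had -0.15 ± 0.11, the outer mitochondrial form Cyb5b -0.34 ± 0.12 and the cytochrome b5 reductase Cyb5r3 -0.27 ± 0.12. Of 24 tested regulators, 8 had a positive and 16 a negative difference (median -0.11). Nr1i3, the receptor CAR, had 9.04, 9.09 and 8.86 in TCE livers, against 9.13, 9.29 and 9.37 in control livers, without overlap (difference -0.27 ± 0.10, adjusted p = 0.322). Nr1i2, the receptor PXR, had 0.07 ± 0.14. Hnf4a had 13.62, 13.48 and 13.32 in TCE livers, against 12.91, 13.10 and 13.21 in controls, also without overlap (0.40 ± 0.12, adjusted p = 0.266).

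Of the regulators in liver, the smallest p belonged to D-box factors, which bind promoters of several hepatic P450s. Dbp had 6.31, 6.23 and 7.05 log2 units in TCE livers, against 2.87, 2.46 and 3.14 in control livers (difference 3.71 ± 0.29 SE, adjusted p = 0.106). These control values lay near the lowest value, so the Dbp difference in liver is a lower bound. Tef had a difference of 0.58 ± 0.09 (adjusted p = 0.138), Hlf one of 0.03 ± 0.22 and the repressor Nfil3 one of -1.07 ± 0.29 (adjusted p = 0.243). Ahr was near the lowest value on all liver arrays except control replicate 3, where it was 4.12, and Ppara was at 2.17 on all but 1 of the 12 arrays. Such values are bounds only and do not show that a receptor was absent. Other targets of the Ah receptor, CAR and PXR gave 5 positive and 5 negative differences among 10 tested genes (median 0). Those of PPAR-alpha, the fatty acid receptor that induces Cyp4a genes, gave 2 positive and 5 negative ones among 7 tested (median -0.09).

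In renal cortex likewise no P450 gene passed the test. Of the 40 genes 26 passed the filter, 0 passed an adjusted p of 0.05 by limma, against 0% of all 10563 genes, and 1 had an unadjusted p under 0.05, against 14.8% (7.26% lower and 7.56% higher in TCE kidneys). That gene, Cyp4a8, was also the 1 of 26 whose TCE and control values did not overlap, against 20.1% of all genes, or 9.81% in the lower direction. Over the 26 genes 7 differences were positive and 18 negative, with a median of -0.14, against 0 over all genes. Without kidney control replicate 2, 22 genes passed the filter, 9 with a positive and 12 with a negative difference (median -0.08).

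Cyp4a8, the omega-hydroxylase with its high level in kidney, had 13.42, 13.57 and 13.42 log2 units in TCE kidneys, against 13.80, 13.64 and 13.91 in control kidneys. All TCE values lay below all control values, with a ratio of 0.803 (log2 difference -0.32 ± 0.09 SE, n = 3 each, limma's adjusted p = 0.267). A further probe set of the gene had 10.27, 10.64 and 10.45 in TCE kidneys, against 11.35, 11.35 and 11.43 in control kidneys. It pointed the same way with a difference of -0.92, so the size of the difference depends on the probe set. Cyp4a3 had 14.33, 14.59 and 14.42 in TCE kidneys, against 14.49, 14.54 and 14.25 in control kidneys, and its groups overlapped (difference 0.02 ± 0.11). The probe set shared by Cyp4a3 and Cyp4a2 had 16.03, 15.82 and 15.94, against 15.75, 15.77 and 15.88 in controls, also with overlap.

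Other members with values well above the lowest in renal cortex did not pass the test. Cyp2c23 had 14.58, 14.65 and 14.61 log2 units in TCE kidneys, against 14.46, 14.65 and 14.47 in control kidneys (difference 0.09 ± 0.08 SE). Cyp2c11 had 11.48, 11.44 and 11.36, against 11.26, 11.43 and 10.29 in controls, where control replicate 3 lay low (0.43 ± 0.31, and 0.08 without that replicate). Cyp4b1 had a difference of -0.37 ± 0.19, Cyp2t1 of -0.44 ± 0.24, Cyp4f6 of -0.18 ± 0.09, Cyp2u1, a fatty acid hydroxylase in humans, of -0.18 ± 0.10 and Cyp2s1 of 0.29 ± 0.17, with adjusted p from 0.413 to 0.463. Without TCE replicate 1 the differences of Cyp4b1 and Cyp2t1 were -0.20 and -0.29, without TCE replicate 2 that of Cyp2s1 was 0.15, and without control replicate 1 that of Cyp2u1 was -0.10. Cyp2d2 (-0.08 ± 0.15), Cyp2d4 (-0.02 ± 0.17), Cyp2j4 (-0.02 ± 0.18) and Cyp4f1 (-0.01 ± 0.11) lay close to 0.

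The tested genes near the lowest value in kidney gave 7 of the 18 negative differences there, and kidney control replicate 2 moved with them. Of the 17 genes with values in liver and near the lowest value in kidney, 10 had their highest kidney value on that array, and their median there was 2.84 log2 units, against 2.22 to 2.39 on the other 5 kidney arrays. Cyp2c7 had 2.21, 2.36 and 2.19 in TCE kidneys, against 2.21, 4.38 and 2.25 in control kidneys. Cyp3a2 had 2.39, 2.27 and 2.39, against 2.39, 3.51 and 2.39 in controls, and Cyp3a18 had 2.17, 2.46 and 2.17, against 2.46, 3.20 and 2.50. All 7 tested members of the CAR and PXR list had a negative difference in kidney (median -0.42), and all 7 belong to these genes near the lowest value.

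Hepatocyte markers followed the same array, as the plot of selected genes of both groups over the kidney arrays shows. The 9 markers together summed to 8.35 to 11.23 log2 units in TCE kidneys, against 9.23 to 13.04 in control kidneys, and the 7 tested had negative differences (median -1.56), none of them past the test. Apoa1 and Tat stayed near the lowest value on all kidney arrays. Serpina1 had 3.14, 2.17 and 2.27 in TCE kidneys, against 3.66, 6.35 and 2.25 in control kidneys, and Ahsg had 4.28, 2.92 and 2.92, against 4.69, 7.66 and 3.38. The 3 adrenal cortex markers on the array lay near the lowest value in every group mean. The 4 podocyte markers on the array, none of them near the lowest value, summed to 10.97 to 11.34 in TCE kidneys, against 10.56 to 10.76 in control kidneys, without overlap. All 4 had a positive difference (median 0.58), none past the adjusted test. Of the 4, 3 (Nphs1, Podxl and Wt1) did not overlap, against 10.3% of all genes in that direction. The 5 macrophage markers summed to 7.77 to 8.15 in TCE kidneys, against 7.55 to 7.72 in control kidneys, also without overlap and with 5 positive differences (median 0.13). Of these 5, however, 2 lay near the lowest value in TCE kidneys and 3 in control kidneys. Taken by gene, only Adgre1 did not overlap, 1 of 5, against 10.3% of all genes in that direction. The part of the hepatocyte, podocyte and macrophage markers in the kidney P450 values was not tested.

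**Figure D4:**
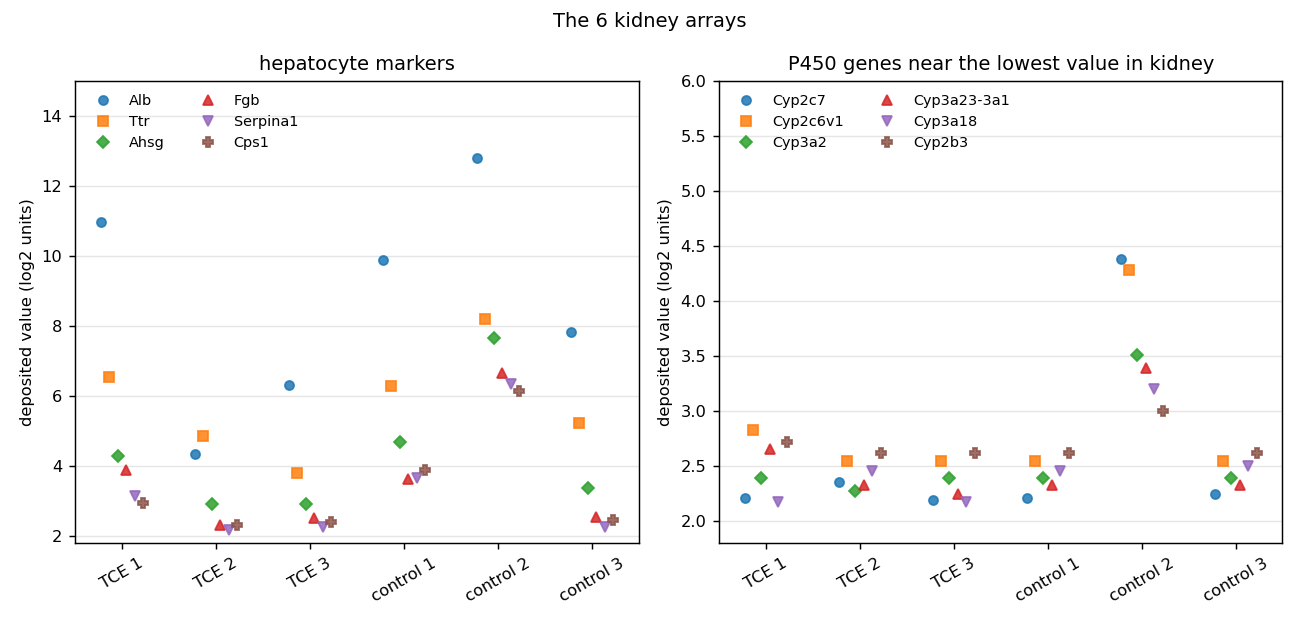
Log2 values (vertical axes) of 6 hepatocyte markers (left panel) and of 6 P450 genes near the lowest value in kidney (right panel) on the 6 kidney arrays, TCE replicates at the left and control replicates at the right of each panel. Each symbol is a gene. All 12 genes have their highest value on control replicate 2, where Alb reaches 12.8 and Cyp2c7 reaches 4.38. The genes shown are a selection from 9 markers and 17 P450 genes. Of the 17, 10 had their highest kidney value on that array.

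The rest of the 8 smallest p in each direction in kidney belonged to Cyp2f4, with a difference of 0.21 ± 0.13 (SE), Cyp2j10 (0.16 ± 0.13), Cyp4f17 (0.27 ± 0.25) and Cyp2d3 (-0.57 ± 0.40). These 4 had at most 4.01 log2 units on any kidney array. Without kidney control replicate 2 their differences were 0.34, 0.03, 0.00 and -0.87. Of the partners, Cyb5a had 13.58, 13.71 and 13.62 log2 units in TCE kidneys, against 13.36, 13.46 and 13.33 in control kidneys, without overlap (difference 0.26 ± 0.07, adjusted p = 0.254). Alas1, the first enzyme of heme synthesis, had 9.89, 10.06 and 9.83, against 9.53, 9.47 and 9.37 in controls, also without overlap (0.47 ± 0.09, adjusted p = 0.204). Cyb5r3 had -0.28 ± 0.07 and Por -0.06 ± 0.22. Of the regulators, Dbp had a difference of 1.56 ± 0.11 (adjusted p = 0.156), Nfil3 of -0.99 ± 0.14 (adjusted p = 0.188), Tef of 0.24 ± 0.16, Hlf of 0.19 ± 0.11, Hnf4a of -0.02 ± 0.08 and Nr1i2 of -0.24 ± 0.19. Nr1i3 lay at 2.17 to 2.18 on all kidney arrays. Of 9 tested partners 4 were positive and 5 negative (median -0.06), and of 17 tested regulators 9 and 8 (median 0.01). The receptor targets gave 5 positive and 4 negative among 9 (median 0.18), and the PPAR-alpha targets 1 positive and 6 negative among 7 (median -0.22).

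Whether the TCE difference in liver differed from that in kidney was tested in 1 fit over all 12 arrays. Of 33 P450 genes that passed the filter, 0 passed an adjusted p of 0.05 by limma, against 0.535% of all 10652 genes, and 2 had an unadjusted p under 0.05, against 17.5% (9.99% with the liver effect above and 7.48% with it below the kidney effect). Cyp2f4 had the smallest p: its difference was -0.29 in liver and 0.21 in kidney, a difference of effects of -0.50 ± 0.16 (SE, adjusted p = 0.171), where the kidney values lay near the lowest value. For Cyp4f6 the difference of effects was 0.45 ± 0.20 (adjusted p = 0.278), and for Cyp3a2 it was 0.81 ± 0.39 (adjusted p = 0.318), with the kidney control value of 3.51 on replicate 2 in it. Further positive ones were those of Cyp2a2 (0.35 ± 0.18), Cyp3a18 (0.34 ± 0.25), Cyp3a9 (0.48 ± 0.37), Cyp2d3 (0.54 ± 0.42), Cyp2j4 (0.26 ± 0.24) and Cyp2c13 (0.21 ± 0.20). Further negative ones were those of Cyp4f17 (-0.77 ± 0.40), Cyp2c22 (-0.37 ± 0.22), Cyp2a1 (-0.35 ± 0.21), Cyp2c12 (-0.51 ± 0.31), Cyp2c11 (-0.51 ± 0.33) and Cyp4a8 (-0.49 ± 0.49). Several of these moved with 1 kidney array. Without kidney control replicate 2 the difference of effects was 0.43 for Cyp3a2, 0.21 for Cyp2a2, 0.10 for Cyp3a18, 0.03 for Cyp2c13, -0.49 for Cyp4f17 and -0.59 for Cyp2c22, and without kidney control replicate 1 it was 0.17 for Cyp3a9. Without kidney control replicate 3 it was -0.16 for Cyp2c11, and without kidney TCE replicate 1 it was 0.26 for Cyp2d3 and 0.16 for Cyp2j4. Without liver control replicate 1 it was -0.25 for Cyp2c12, -0.16 for Cyp2a1 and 0.02 for Cyp4a8. Cyp4v3 had -1.45 ± 0.71 (adjusted p = 0.326). Without liver TCE replicate 3 it had -2.17 with an adjusted p of 0.0331, which was then the 1 P450 gene past the test. Cyp4v3 was at 2.17 on all kidney arrays, so its difference of effects is its liver difference and holds no measured kidney effect. In the liver comparison itself, its adjusted p by limma was at least 0.196 when 1 array was left out.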

How the data were processed

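Total RNA of 12 tissue pieces was labelled with biotin and hybridised to GeneChip rat genome arrays, per the labels' protocols. The authors deposited 1 table of log2 values, 31099 probe sets by 12 arrays, with a shared lowest value of 2.17 and a highest of 16.5. The log2 scale was inferred from the range of the values. Per the submitters' processing notes, the tools were affy and limma, while how background was corrected, arrays were normalized and probes were summarised is not given in the sources used here. Probe set summaries cannot separate transcripts that share probes, and near their lowest value they give bounds only.

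Arrays were grouped by tissue and treatment from the sample titles. Names came from GEO's annotation of the platform, which gave 20826 probe sets 1 symbol, 436 several and 9780 no symbol. The 57 control probe sets were not tested. All 40 members' gene IDs were found in RefSeq's gene table of GRCr8. A gene entered a fit where its mean over those arrays was above the 40th percentile of the probe sets without controls, which was 2.447 log2 units in liver, 2.43 in kidney and 2.549 over both tissues. Tests were two-sided with limma 3.58.1 in R 4.3.3 (lmFit, eBayes), fitted over all genes with Benjamini-Hochberg adjustment and a threshold of 0.05, after the script was tested on simulated data. SE is limma's moderated standard error. The labels give 3 rats per treatment but do not tie each array to a rat, so p-values measure the spread between these samples, and 3 arrays a group limit the precision. Depth has no counterpart on arrays.

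Named with values were the 15 largest tissue differences in each direction, the 8 smallest p in each direction of each TCE comparison, preset P450 genes, and partners and regulators. The members and lists were chosen with earlier results of these data known. Equal replicate numbers were not treated as pairs, since the labels do not say whether they mark the same rat. Deviations from the group means of same-numbered liver and kidney arrays correlated at 0.058, 0.048 and 0.08 in controls. In TCE rats they correlated at 0.006, -0.007 and 0.064. Each control liver array correlated best with its own number in kidney, and of the TCE livers only replicate 3 did. Between TCE and control arrays of a tissue the range was -0.095 to 0.01. Which liver and kidney arrays share a rat is not known, and the main 12-array fit treated all arrays as independent. Alternatives were no filter, a filter at the 60th percentile, a fit of all probe sets with 1 symbol, averaging the probe sets of a gene, no _x_at or _s_at probe sets, quantile normalization again, centring on the median, other variance models, a replicate block, all 12 arrays in a fit, a threshold of 0.1 and leaving out each array. Promoter motifs were searched on both strands of the 250 bases before each transcript start in RefSeq's table for GRCr8.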

Additional observations from a re-analysis of the deposited data

How the results depend on the processing

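The counts of P450 genes past the threshold were 0 for TCE against control in liver and in kidney under all alternatives. For control liver against control kidney the count ranged from 31 to 32 when 1 array was left out and from 29 to 33 under the other settings, and it was 32 on the TCE arrays. For the difference of effects it ranged from 0 to 1 when 1 array was left out. The 1 was Cyp4v3 without liver TCE replicate 3 (-2.17, adjusted p = 0.0331), with its kidney values all at 2.17. With arrays centred on their median the liver count without overlap was 10, against 5 before; it was 5 under the other settings and 1 in kidney under all. After quantile normalization again the 5 held Cyp2t1 in place of Cyp2c7, whose difference was then -0.16. Centring also moved the median of all genes in control liver against control kidney to 0.25, against -0.10, and turned Cyp3a23-3a1 in liver to -0.03. Cyp4a3 in kidney, at 0.02, was -0.01 after quantile normalization, -0.03 with array weights, -0.05 without kidney TCE replicate 2 and -0.07 without kidney control replicate 3. The difference of effects of Cyp4a8 was 0.07 with the mean of its probe sets and ranged from -0.78 without liver control replicate 2 to 0.02 without liver control replicate 1. Without 1 array, Cyp2c22 in liver ranged from -0.62 to -0.51 (adjusted p 0.21 to 0.326). With the replicate block the counts were 0 in liver, 0 in kidney, 0 for the difference of effects and 33 between tissues. In the liver and kidney fits this block joined TCE and control arrays of equal number, which come from different rats. Each control liver array correlated best with its own number in kidney (0.058, 0.048 and 0.08), but of the TCE livers only replicate 3 did (0.064). These low correlations are at most a hint from the data and not the design. Over all genes, liver calls were 17 without the filter and 138 with all 12 arrays in the fit, against 0, and kidney calls were 2 and 10 there, against 0, while 0 P450 genes were called each time. The 57 calls of the difference of effects were 0 with the block, 0 without kidney TCE replicate 1, 2 without kidney control replicate 1, 18 without kidney control replicate 3, 29 to 36 without 1 of liver TCE replicates 1 and 2, the liver control replicates or kidney TCE replicate 3, 61 without kidney control replicate 2, 93 without liver TCE replicate 3 and 108 without kidney TCE replicate 2. They were 123 with array weights, 141 with arrays centred and 183 over all probe sets, and P450 genes were among them only without liver TCE replicate 3. The cause of these changes was not tested. Values near the lowest one are bounds, so small differences there were not measurable.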

Other observations

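Cish, a growth hormone-responsive gene listed among the P450 regulators because growth hormone sets the sex-specific P450s, was high on the third TCE array of both tissues. It had 4.43, 4.57 and 10.57 log2 units in TCE livers, against 5.52, 7.73 and 7.29 in control livers, and 6.82, 6.44 and 9.91 in TCE kidneys, against 6.74, 6.75 and 6.75 in control kidneys. Cish was chosen after its values were seen.

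Further probe sets of 3 members had overlapping groups in both tissues. That of Cyp2d4 had a difference of -0.13 in liver and -0.31 in kidney, and that of Cyp2j3 had -0.04 in liver and 0.04 in kidney. That of Cyp4v3 was at 2.17 on all arrays. The probe set shared by Cyp2d5 and Cyp2d1 had 14.06, 14.00 and 13.88 log2 units in TCE livers, against 13.81, 14.03 and 13.99 in control livers, and 11.84, 12.59 and 11.90 in TCE kidneys, against 12.52, 12.16 and 12.59 in control kidneys, with overlap in both tissues. The probe set shared by Cyp4a3 and Cyp4a2 had 15.17, 14.97 and 14.98 in TCE livers, against 14.62, 14.60 and 15.07 in control livers, with overlap.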
